A study of Mus musculus with 10 samples.

Results

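The genes described here are 36 mouse enzymes and carriers of glucose and pyruvate use, given as a list of symbols and found by symbol among the 24421 genes of the deposited tables. All 36 were present. They comprise 3 genes for hexokinases and phosphoglucose isomerase, 7 phosphofructokinases and enzymes that regulate or reverse that step, and 9 enzymes from aldolase to pyruvate kinase. A further 2 are lactate dehydrogenases, 2 are subunits of the mitochondrial pyruvate carrier and 4 belong to the pyruvate dehydrogenase complex. The remaining genes are 3 pyruvate dehydrogenase kinases, 4 pentose phosphate enzymes and 2 creatine kinases.

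RNA came from 8-cell mouse embryos of BDF1 genotype in 5 groups of 2 libraries. The groups were a Tfap2c knockdown (siTfap2c), a Klf5 knockdown (siKlf5), a pair of knockouts of genomic Tfap2c motifs named Arpc1bE_CdxE1_KO and CdxE2_KO, and a control (Ctrl). The labels give the control no further treatment, do not say how the knockdowns or knockouts were made, and do not say whether the replicates came from separate pools of embryos, so the spread between them may be technical. Tfap2c belongs to the AP-2 transcription factors, and Klf5 to the Krüppel-like ones.

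Glycolysis splits glucose into pyruvate, which is either reduced to lactate or carried into mitochondria and oxidised by the pyruvate dehydrogenase complex. The pentose phosphate pathway branches off at glucose phosphate and yields NADPH and ribose phosphate, and creatine kinases move phosphate between ATP and creatine. Cleaving mouse embryos live at first on pyruvate and lactate, and take up more glucose as they approach the blastocyst stage.

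Values are log2(value + 1) of an abundance whose kind is not named, so levels are compared between groups within a gene and not between genes. The linear values of a library summed to 388454 to 395401 units in the knockdown and control libraries and to 478651 to 498621 in the 4 motif knockout libraries. The depth is unknown. The targeted genes were lower in their own knockdowns: Tfap2c stood at 3.94 and 4.09 in siTfap2c embryos against 6.61 and 6.61 in Ctrl embryos, and Klf5 at 4.36 and 4.17 in siKlf5 embryos against 7.20 and 7.13 in Ctrl embryos. Klf5 also fell in siTfap2c embryos, with a log2 fold change of -1.78 (limma, Benjamini-Hochberg adjusted p = 4.74e-06). As a check of the motif knockouts, Arpc1b stood at 3.27 and 3.30 in Arpc1bE_CdxE1_KO and 4.84 and 4.66 in CdxE2_KO embryos. It was at 4.71 and 4.48 in Ctrl embryos. Cdx2 stood at 0.77 and 1.53 in Arpc1bE_CdxE1_KO and 0.82 and 0.93 in CdxE2_KO embryos, against 2.35 and 2.48 in Ctrl embryos. The markers of the labelled cells were present in every library but differed between groups. Pou5f1, a pluripotency factor, stood at 4.89 and 5.14 in siTfap2c, 6.22 and 6.34 in siKlf5, 6.53 and 6.49 in Arpc1bE_CdxE1_KO and 6.27 and 6.12 in CdxE2_KO embryos, against 6.48 and 6.50 log2 units in Ctrl embryos. It was lower in siTfap2c embryos by a log2 fold change of -1.47 (limma adjusted p = 1.13e-05), and in CdxE2_KO embryos by -0.30 (adjusted p = 0.0401). Also lower in siTfap2c embryos were Nanog (-0.98, adjusted p = 0.0114) and the adhesion protein Cdh1 (-0.41, adjusted p = 0.00509). Cdh1 was also lower in siKlf5 embryos (-0.54, adjusted p = 0.00534), and Nanog higher in Arpc1bE_CdxE1_KO (1.34, adjusted p = 0.0117) and CdxE2_KO embryos (1.15, adjusted p = 0.0134). The part of these differences in the results for the metabolic genes was not tested. The summed linear level of 12 cumulus and granulosa cell markers was 2.90 to 4.28 units over the libraries, and that of 7 sperm and spermatid markers 0 to 0.784 units.

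Genes that reached 1 linear unit in 2 or more libraries were tested, which 31 of the 36 did. The 5 others lay under 1 log2 unit in every library: Pfkfb4, the aldolase Aldoc, triosephosphate isomerase (Tpi1), Gapdh and Pdk2. Gapdh, the dehydrogenase often used as a reference transcript, was at 0.44 and 0.76 log2 units in siTfap2c, 0 and 0.25 in siKlf5, 0.14 and 0.81 in Arpc1bE_CdxE1_KO, 0.03 and 0.56 in CdxE2_KO, and 0 and 0.27 in Ctrl embryos. It is therefore listed at 0 in replicate 1 of siKlf5 and of Ctrl. An exact 0 can be a failed estimate. The coding sequence of Gapdh (chromosome 6, 125161715 to 125166467 on the minus strand, GENCODE M21 on mm10) has 139 pseudogene copies at 90% identity or more over at least 50% of its length, and of the genes in the tables that hold such a copy Peli2 was listed at 0.48 to 2.24 and 3000002C10Rik at 1.21 to 2.08 log2 units. Those 2 were chosen after their values were seen. Reads of a gene with near copies can be lost or shared, and whether that took part in its values was not tested. Aldoc was listed at 0 in Arpc1bE_CdxE1_KO replicate 1 and at 0.17 to 0.75 in the other 9 libraries, and Pdk2 was listed at 0 in 3 libraries and at most 0.20 in the rest. Tpi1 ranged between 0.20 and 0.93 and Pfkfb4 between 0.04 and 0.67.

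**Figure D1:**
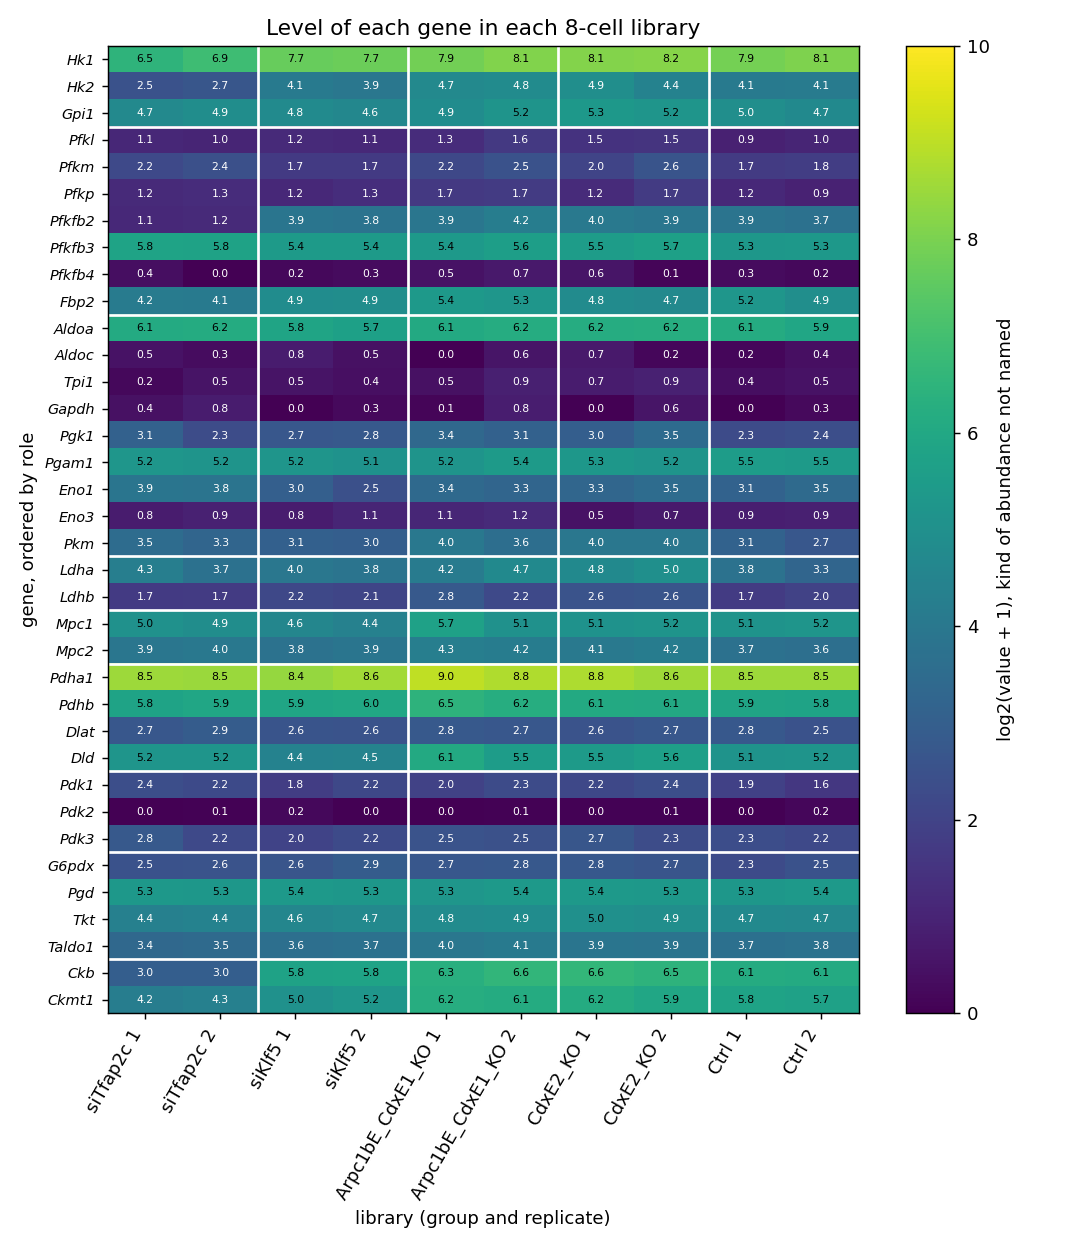
Level of each of the 36 genes (rows, in order of role, white lines between roles) in each of the 10 libraries (columns, white lines between groups), as log2(value + 1) in colour and in figures. The dark cells of Hk2, Pfkfb2 and Ckb in the 2 siTfap2c columns stand out, as do the rows of Gapdh, Pdk2, Aldoc, Tpi1 and Pfkfb4, which stay under 1 in every library.

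The design text of the series names interference with Tfap2c as its question, so the knockdown of Tfap2c comes first. In siTfap2c embryos 9 of the 31 tested genes differed from Ctrl embryos, 1 higher and 8 lower. Transcripts for both hexokinases, for Pfkfb2, for the bisphosphatase Fbp2 and for both creatine kinases were lower, with log2 fold changes between -3.14 and -0.96. Those of the pentose phosphate enzymes Tkt and Taldo1 were lower by smaller amounts. Pfkfb3 was higher. The members called were 29.0% of those tested, against 24.6% of all 11195 genes tested in either direction, so their share with both directions together lay near that of all genes. By direction 12.6% of all genes were called higher and 11.9% lower, beside 1 and 8 of the 31 members. This lean of the members towards lower calls was not tested. The median log2 fold change of the 31 genes was 0.04, and that of all genes 0.04.

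The largest fall among the tested members was that of Ckb. Ckb, the cytosolic brain-type creatine kinase (chromosome 12, 111669361 to 111672338, minus strand), stood at 2.98 and 3.01 in siTfap2c embryos, against 6.14 and 6.12 in Ctrl embryos. The libraries of the groups lay far apart and those within a group within 0.03 log2 units, and the log2 fold change was -3.14 (SE 0.10, limma adjusted p = 2.11e-07). Ckb was at 5.76 and 5.79 in siKlf5, 6.31 and 6.60 in Arpc1bE_CdxE1_KO and 6.63 and 6.46 in CdxE2_KO embryos. Ckmt1, the mitochondrial creatine kinase (chromosome 2, 121357714 to 121363737, plus strand), stood at 4.22 and 4.34 in siTfap2c embryos against 5.79 and 5.72 in Ctrl embryos. The corresponding log2 fold change was -1.48 (SE 0.10, and adjusted p = 1.5e-05). Ckmt1 overlaps Strc on the opposite strand. The strand setting of the quantification is not given in the sources used here, so reads of such a pair may not be told apart.

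The step from fructose phosphate to fructose bisphosphate sets much of the flux through glycolysis, and the genes around it moved in different directions. Pfkfb2, an enzyme that makes and breaks down the bisphosphate activating phosphofructokinase (chromosome 1, 130689182 to 130729253, minus strand), stood at 1.14 and 1.18 in siTfap2c embryos against 3.86 and 3.75 in Ctrl embryos. Its log2 fold change was -2.64 (SE 0.12, adjusted p = 1.78e-06), and in each of the other 3 groups it lay between 3.80 and 4.23. Pfkfb2 overlaps Gm29427, a gene model on the same strand with a near copy of its coding sequence, and Yod1 on the opposite strand. Its relative Pfkfb3 (chromosome 2, 11471433 to 11554077, minus strand) moved the other way, at 5.81 and 5.76 in siTfap2c embryos against 5.31 and 5.34 in Ctrl embryos. The log2 fold change of Pfkfb3 was 0.46 (SE 0.10, adjusted p = 0.00714), and without siTfap2c replicate 1 the adjusted p was 0.0558. Fbp2, a fructose bisphosphatase that runs the step backwards (chromosome 13, 62836877 to 62858422, minus strand), stood at 4.17 and 4.09 in siTfap2c embryos against 5.24 and 4.93 in Ctrl embryos, a log2 fold change of -0.96 with an SE of 0.11 (adjusted p = 0.000272). The phosphofructokinases themselves did not pass the test: the log2 fold changes were 0.56 for Pfkm (adjusted p = 0.072), 0.18 for Pfkp (adjusted p = 0.531) and 0.09 for Pfkl (adjusted p = 0.748).

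Hexokinases phosphorylate glucose on entry. Hk2 (chromosome 6, 82725025 to 82774454, minus strand) stood at 2.52 and 2.67 in siTfap2c embryos against 4.08 and 4.15 in Ctrl embryos, with a log2 fold change of -1.52 with an SE of 0.15 (adjusted p = 0.000137). Hk1 (chromosome 10, 62268855 to 62379908, minus strand, with Hk1os on the opposite strand) stood at 6.49 and 6.91 in siTfap2c embryos against 7.91 and 8.06 in Ctrl embryos. Its log2 fold change was -1.28 (SE 0.13, adjusted p = 0.000144), and the siTfap2c libraries were the lowest of the 10 for both hexokinases. Gpi1, the isomerase that acts next, differed by -0.02 (adjusted p = 0.916).

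Of the 4 pentose phosphate enzymes, 2 were called. Transketolase (Tkt) stood at 4.37 and 4.44 in siTfap2c embryos against 4.73 and 4.67 in Ctrl embryos, a log2 fold change of -0.30 (adjusted p = 0.0259). Transaldolase (Taldo1) stood at 3.36 and 3.46 against 3.68 and 3.77 in Ctrl embryos, a log2 fold change of -0.31 (adjusted p = 0.0367). Both calls were lost without any 1 of the 4 libraries, with adjusted p up to 0.146 for Tkt and 0.194 for Taldo1. The enzymes of the oxidative branch differed by 0.13 for G6pdx (adjusted p = 0.536) and by -0.01 for Pgd (adjusted p = 0.965). Further down lie the enzymes from aldolase to pyruvate kinase, the lactate dehydrogenases, the pyruvate carrier, the pyruvate dehydrogenase complex and its kinases. Limma called 0 of their 16 tested genes, and 5 had an unadjusted p under 0.05. Of all 11195 genes tested 24.6% were called, and 4020 had an unadjusted p under 0.05. Among the 16 genes the smallest adjusted p was that of Pdk1, at 0.0529 with a log2 fold change of 0.56. Eno1 followed, at 0.0573 with 0.56.

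**Figure D2:**
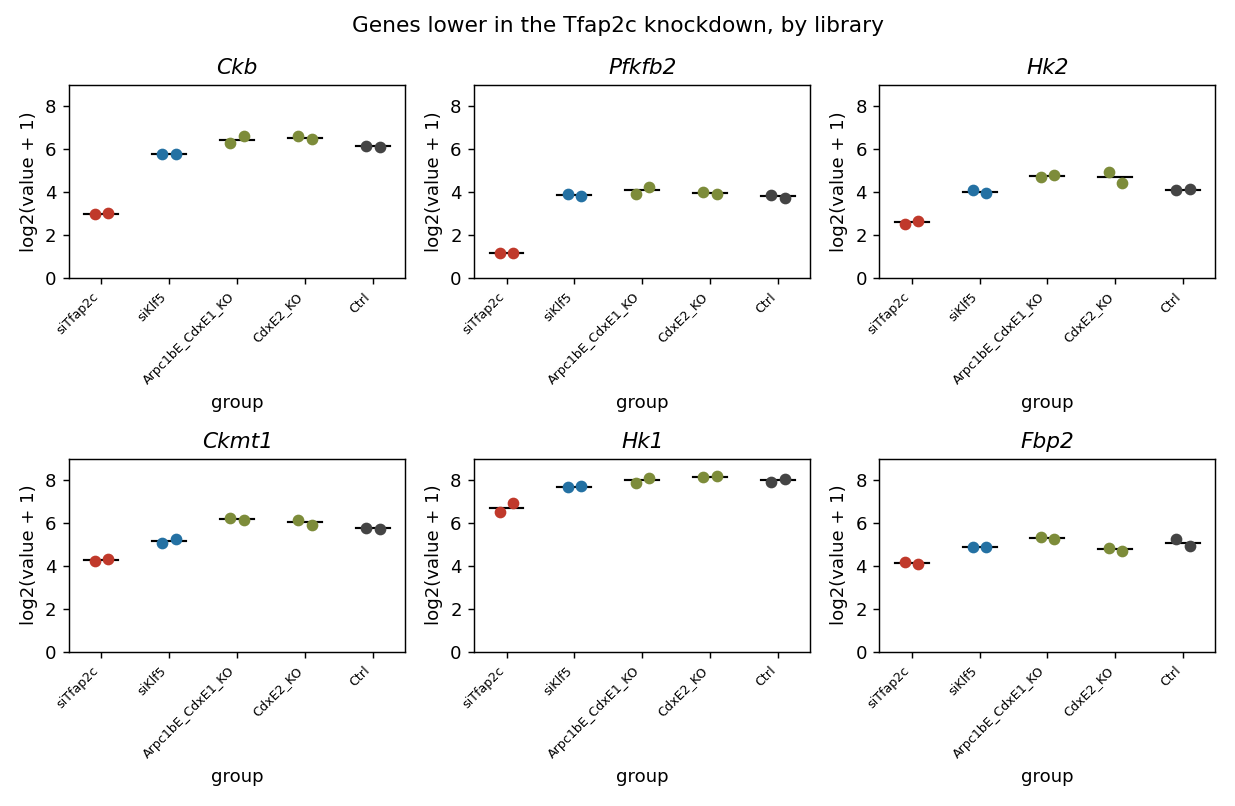
Level of 6 genes in each library by group, as log2(value + 1): each point is 1 library and each bar the mean of 2. The siTfap2c points are the lowest of all groups in each panel, at 2.98 and 3.01 for Ckb and 1.14 and 1.18 for Pfkfb2.

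Because AP-2 and Krüppel-like factors bind GC-rich motifs, the promoter windows of the knockdown-called members with the lowest p are shown, from 250 bases before to 50 after the start (RefSeq, GRCm38.p6, first listed window of each gene). Capitals mark matches on either strand to GCCNNNGGC, an AP-2 motif, and CCNCNCCC, a Krüppel-like motif, and overlapping matches run together.
Ckb chr12:111672289-111672588 minus strand: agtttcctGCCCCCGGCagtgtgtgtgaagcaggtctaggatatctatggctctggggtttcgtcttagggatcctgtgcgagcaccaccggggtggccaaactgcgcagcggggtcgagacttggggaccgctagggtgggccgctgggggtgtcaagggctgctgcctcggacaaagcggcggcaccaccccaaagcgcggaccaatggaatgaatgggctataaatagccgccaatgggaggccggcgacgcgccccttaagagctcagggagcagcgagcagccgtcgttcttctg
Pfkfb2 chr1:130715772-130716071 minus strand: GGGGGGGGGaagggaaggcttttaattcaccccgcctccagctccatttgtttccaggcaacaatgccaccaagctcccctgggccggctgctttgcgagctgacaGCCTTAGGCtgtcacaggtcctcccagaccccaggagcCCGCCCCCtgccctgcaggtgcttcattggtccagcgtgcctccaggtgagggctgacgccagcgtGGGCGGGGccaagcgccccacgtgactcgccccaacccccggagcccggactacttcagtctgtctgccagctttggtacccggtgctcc
Hk2 chr6:82774405-82774704 minus strand: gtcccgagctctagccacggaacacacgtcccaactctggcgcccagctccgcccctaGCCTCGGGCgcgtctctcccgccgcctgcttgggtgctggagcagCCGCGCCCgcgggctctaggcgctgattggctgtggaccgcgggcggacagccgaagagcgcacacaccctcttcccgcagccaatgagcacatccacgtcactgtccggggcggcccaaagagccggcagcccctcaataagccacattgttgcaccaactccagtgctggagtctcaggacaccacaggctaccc
Ckmt1 chr2:121357526-121357825 plus strand: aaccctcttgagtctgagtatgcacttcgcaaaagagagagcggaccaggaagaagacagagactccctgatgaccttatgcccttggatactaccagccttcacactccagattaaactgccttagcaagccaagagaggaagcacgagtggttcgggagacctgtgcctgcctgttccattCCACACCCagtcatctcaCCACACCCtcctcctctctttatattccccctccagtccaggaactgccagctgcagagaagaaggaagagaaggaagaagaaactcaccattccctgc
The AP-2 letters occur once in the windows of Ckb, at -242 from the start, of Pfkfb2, at -144, and of Hk2, at -192, and are not in the Ckmt1 window. The Krüppel-like letters occur at 4 places in the Pfkfb2 window, 2 in the Ckmt1 window and 1 in the Hk2 window, and are not in the Ckb window. Of all 32851 windows in the table, 16.6% hold the AP-2 letters and 49.5% the Krüppel-like letters. Of the first windows of the 36 members, 11 hold the AP-2 letters and 28 the Krüppel-like letters. Of the 9 members called in siTfap2c embryos 4 hold the AP-2 letters and 7 the Krüppel-like letters, and of the 3 called in siKlf5 embryos 1 and 2 do. A match describes letters and is no evidence of binding.

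In siKlf5 embryos 3 of the 31 tested genes differed from Ctrl embryos, all lower: Ckmt1, the dehydrogenase subunit Dld and the carrier subunit Mpc1. That is 9.68% of those tested, against 7.52% of all genes called in either direction, 2.25% called higher and 5.27% called lower. With libraries centred on their medians the calls over all genes split into 379 higher and 441 lower, against 252 and 590 as deposited. The members' median log2 fold change was -0.04 and that of all genes -0.02.

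Ckmt1 stood at 5.05 and 5.25 in siKlf5 embryos against 5.79 and 5.72 in Ctrl embryos, a log2 fold change of -0.61 (SE 0.10, limma adjusted p = 0.0097). Dld, the dihydrolipoamide dehydrogenase shared by pyruvate and oxoglutarate dehydrogenase, stood at 4.44 and 4.47 against 5.12 and 5.16 in Ctrl embryos, a log2 fold change of -0.68 with an SE of 0.15 (adjusted p = 0.0287). Mpc1, which forms the mitochondrial pyruvate carrier with Mpc2, stood at 4.58 and 4.38 against 5.14 and 5.22 in Ctrl embryos, a log2 fold change of -0.70 with an SE of 0.17 (adjusted p = 0.0424). In each of these genes the groups did not overlap, but the same held for 19 of the 31 tested genes. It was not counted over all genes. The calls of Dld and Mpc1 were lost without any 1 of the 4 libraries, with adjusted p up to 0.14 and 0.222, and that of Ckmt1 without siKlf5 replicate 1, Ctrl replicate 1 or Ctrl replicate 2, with adjusted p up to 0.0788. Mpc2 differed by 0.14 (adjusted p = 0.442) and the Dld partners Pdha1, Pdhb and Dlat by -0.02, 0.10 and -0.06 (adjusted p = 0.954, 0.583 and 0.862). Of the genes with the largest falls in siTfap2c embryos, Ckb differed by -0.36 (adjusted p = 0.0678), Pfkfb2 by 0.05 (adjusted p = 0.862) and Hk2 by -0.09 (adjusted p = 0.791).

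**Figure D3:**
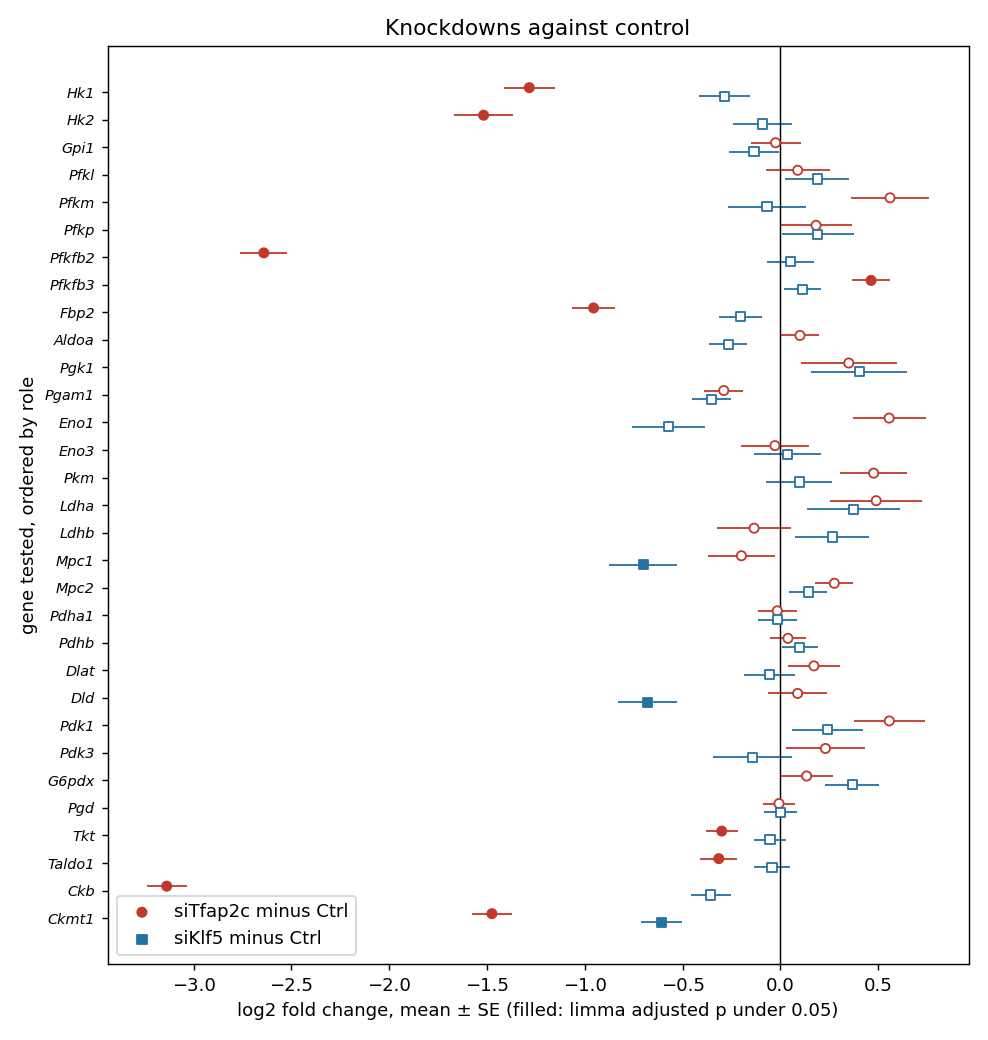
Log2 fold change with its SE for the 31 tested genes, in order of role, for siTfap2c minus Ctrl (circles) and siKlf5 minus Ctrl (squares), filled where the limma adjusted p was under 0.05. In siTfap2c embryos Ckb lies at -3.14 and Pfkfb2 at -2.64, against -0.36 and 0.05 in siKlf5 embryos, and Ckmt1 is filled in both.

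The knockdowns were set directly against each other to test whether their effects differed. Between siTfap2c and siKlf5 embryos 11 of the 31 genes differed, 5 higher and 6 lower in siTfap2c embryos. This was 35.5% of those tested, against 25.6% of all genes in either direction, 15.1% higher and 10.5% lower. With libraries centred on their medians 10 members were called, 2 higher and 8 lower, and over all genes 1279 higher and 1472 lower against 1693 and 1172 as deposited. The hexokinases, Pfkfb2, Fbp2 and the creatine kinases were lower in siTfap2c than in siKlf5 embryos. Their log2 fold changes were -2.78 for Ckb (limma adjusted p = 5e-07), -2.69 for Pfkfb2 (adjusted p = 1.76e-06), -1.43 for Hk2, -0.998 for Hk1, -0.87 for Ckmt1 and -0.75 for Fbp2 (adjusted p = 0.000213, 0.000649, 0.000379 and 0.00114).

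The 5 genes higher in siTfap2c than in siKlf5 embryos were Eno1, Dld, Pfkm, Aldoa and Pfkfb3. Eno1, the enolase of most tissues, stood at 3.88 and 3.84 in siTfap2c embryos against 3.02 and 2.45 in siKlf5 embryos, with 3.14 and 3.47 in Ctrl embryos between them. The difference was 1.13 (SE 0.19, adjusted p = 0.00225). Eno1 has 5 pseudogene copies and the near-identical Eno1b (0.45 to 1.17 log2 units), and reads shared with these copies were not measured, so its value is uncertain. Dld stood at 5.22 and 5.23 in siTfap2c embryos against 4.44 and 4.47 in siKlf5 embryos, a difference of 0.77 (SE 0.15, adjusted p = 0.0055). Both calls and the 6 falls held in all 12 other settings tried. The muscle-type phosphofructokinase Pfkm was at 2.22 and 2.45 in siTfap2c embryos against 1.71 and 1.69 in siKlf5 embryos, and the aldolase Aldoa at 6.10 and 6.16 in siTfap2c embryos against 5.85 and 5.67 in siKlf5 embryos. These differences, 0.63 and 0.37 (adjusted p = 0.0465 and 0.0207), and the 0.35 of Pfkfb3 (adjusted p = 0.0255), were lost with median centring and in at least 3 of the 4 sets with 1 library left out.

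The members called in the motif knockouts were all higher than in Ctrl embryos, as were nearly all genes called there. By role, 2 of 6 tested enzymes from aldolase to pyruvate kinase were higher in each knockout, and 3 of 4 pyruvate dehydrogenase complex genes in Arpc1bE_CdxE1_KO and 0 of 4 in CdxE2_KO embryos. Of the 2 lactate dehydrogenases 1 was higher in Arpc1bE_CdxE1_KO and 2 in CdxE2_KO embryos. In Arpc1bE_CdxE1_KO embryos 9 of 31 tested genes were called, all higher than in Ctrl embryos, 29.0% against 24.0% of all 10920 genes tested in either direction, 23.2% higher and 0.815% lower. In CdxE2_KO embryos 8 of 31 were called, all higher, 25.8% against 29.9% of all genes in either direction, 28.5% higher and 1.44% lower. The median log2 fold change of all genes was 0.27 in Arpc1bE_CdxE1_KO and 0.29 in CdxE2_KO embryos, beside 0.32 and 0.28 for the members. With libraries at a common sum 0 members were called by limma in Arpc1bE_CdxE1_KO embryos and 3 in CdxE2_KO embryos. In Arpc1bE_CdxE1_KO embryos 6 members had an unadjusted p under 0.05 there, as had 2437 of all 10920 genes. Over all genes the common sum gave 183 higher and 130 lower in Arpc1bE_CdxE1_KO embryos, against 2532 and 89 as deposited, and 405 higher and 291 lower in CdxE2_KO embryos, against 3113 and 157. As deposited, all member calls were lost in both knockouts without Ctrl replicate 2, and most were lost without Ctrl replicate 1. Fewer members were also called without either CdxE2_KO library and without Arpc1bE_CdxE1_KO replicate 1, but not without Arpc1bE_CdxE1_KO replicate 2. The scale of the deposited values and the knockout cannot be told apart for most of these genes. Summed oocyte and polar body markers were at 48.1 to 66.2 linear units in the 4 knockout libraries against 42.1 to 42.8 in Ctrl embryos. These are deposited values, not corrected for the higher sums of the knockout libraries. The part of the markers in the result was not tested.

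Lactate dehydrogenase A (Ldha), which reduces pyruvate to lactate, stood at 4.76 and 4.96 in CdxE2_KO embryos and at 4.17 and 4.73 in Arpc1bE_CdxE1_KO embryos, against 3.79 and 3.28 in Ctrl embryos. All 4 knockout libraries lay above both control libraries. Of the 31 tested genes, 24 in Arpc1bE_CdxE1_KO and 26 in CdxE2_KO embryos did not overlap with Ctrl embryos. Such separation was not counted over all genes, so it is not read as a result about these genes. The median log2 fold change of all genes was 0.27 in Arpc1bE_CdxE1_KO and 0.29 in CdxE2_KO embryos. The log2 fold change in CdxE2_KO embryos was 1.33 as deposited (SE 0.23, limma adjusted p = 0.00881) and 1.05 at a common sum (adjusted p = 0.0452), but with median centring it was 1.00 (adjusted p = 0.0508). The CdxE2_KO call was also lost without CdxE2_KO replicate 2 or Ctrl replicate 2, with adjusted p up to 0.059. In Arpc1bE_CdxE1_KO embryos it was 0.91 as deposited (adjusted p = 0.0297) and 0.61 at a common sum (adjusted p = 0.189). Ldha has 8 pseudogene copies.

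Pyruvate kinase (Pkm) stood at 4.02 and 3.62 in Arpc1bE_CdxE1_KO and 3.95 and 3.96 in CdxE2_KO embryos, against 3.13 and 2.72 in Ctrl embryos. Its log2 fold changes as deposited were 0.90 and 1.03 (adjusted p = 0.0183 and 0.00982), and at a common sum 0.60 and 0.77 (adjusted p = 0.115 and 0.0507). Phosphoglycerate kinase (Pgk1) stood at 3.37 and 3.09 in Arpc1bE_CdxE1_KO and 2.99 and 3.48 in CdxE2_KO embryos, against 2.29 and 2.42 in Ctrl embryos. Its log2 fold change was 0.88 in each knockout as deposited (adjusted p = 0.0221 and 0.0173). For both genes the knockout libraries did not overlap with the control libraries, a separation not counted over all genes. Neither gene passed the test at a common sum.

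The other genes called in the knockouts as deposited had log2 fold changes of 0.38 to 0.75, and each of these calls was lost at a common sum. Hk2 was called in both, at 4.70 and 4.81 in Arpc1bE_CdxE1_KO and 4.94 and 4.43 in CdxE2_KO embryos against 4.08 and 4.15 in Ctrl embryos (0.64 and 0.57). Mpc2 was called in both too, at 4.29 and 4.19 in Arpc1bE_CdxE1_KO and 4.06 and 4.20 in CdxE2_KO embryos against 3.74 and 3.65 in Ctrl embryos (0.55 and 0.43). In these 2 genes every knockout library lay above every control library, a separation not counted over all genes. Called in Arpc1bE_CdxE1_KO embryos were also Dld at 6.09 and 5.53 against 5.12 and 5.16 in Ctrl embryos and Ckmt1 at 6.23 and 6.14 against 5.79 and 5.72 in Ctrl embryos. Pdhb stood at 6.45 and 6.23 against 5.86 and 5.79 in Ctrl embryos, and Pdha1 at 9.03 and 8.81 against 8.53 and 8.54 in Ctrl embryos. Pdha1 and Pdhb encode the pyruvate-decarboxylating subunits of the dehydrogenase complex. Called in CdxE2_KO embryos were Ldhb at 2.56 and 2.65 against 1.74 and 1.97 in Ctrl embryos, Gpi1 at 5.34 and 5.23 against 4.95 and 4.73 in Ctrl embryos, and Ckb at 6.63 and 6.46 against 6.14 and 6.12 in Ctrl embryos. The libraries of the groups did not overlap in these 3 genes, as in 26 of the 31 tested genes in CdxE2_KO embryos. That was not counted over all genes.

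At a common sum Fbp2 and phosphoglycerate mutase (Pgam1) were lower in CdxE2_KO embryos. Fbp2 stood at 4.83 and 4.71 in CdxE2_KO embryos against 5.24 and 4.93 in Ctrl embryos, a log2 fold change of -0.31 as deposited (adjusted p = 0.095) and -0.60 at a common sum (adjusted p = 0.0359). Pgam1 stood at 5.30 and 5.18 against 5.54 and 5.46 in Ctrl embryos, -0.26 as deposited (adjusted p = 0.117) and -0.55 at a common sum (adjusted p = 0.0436). With median centring these 2 were the members called, both lower, at -0.64 and -0.59 (adjusted p = 0.0308 and 0.0364). In Arpc1bE_CdxE1_KO embryos at a common sum, Pgam1 differed by -0.52 (adjusted p = 0.069) and Fbp2 by -0.09 (adjusted p = 0.708).

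**Figure D4:**
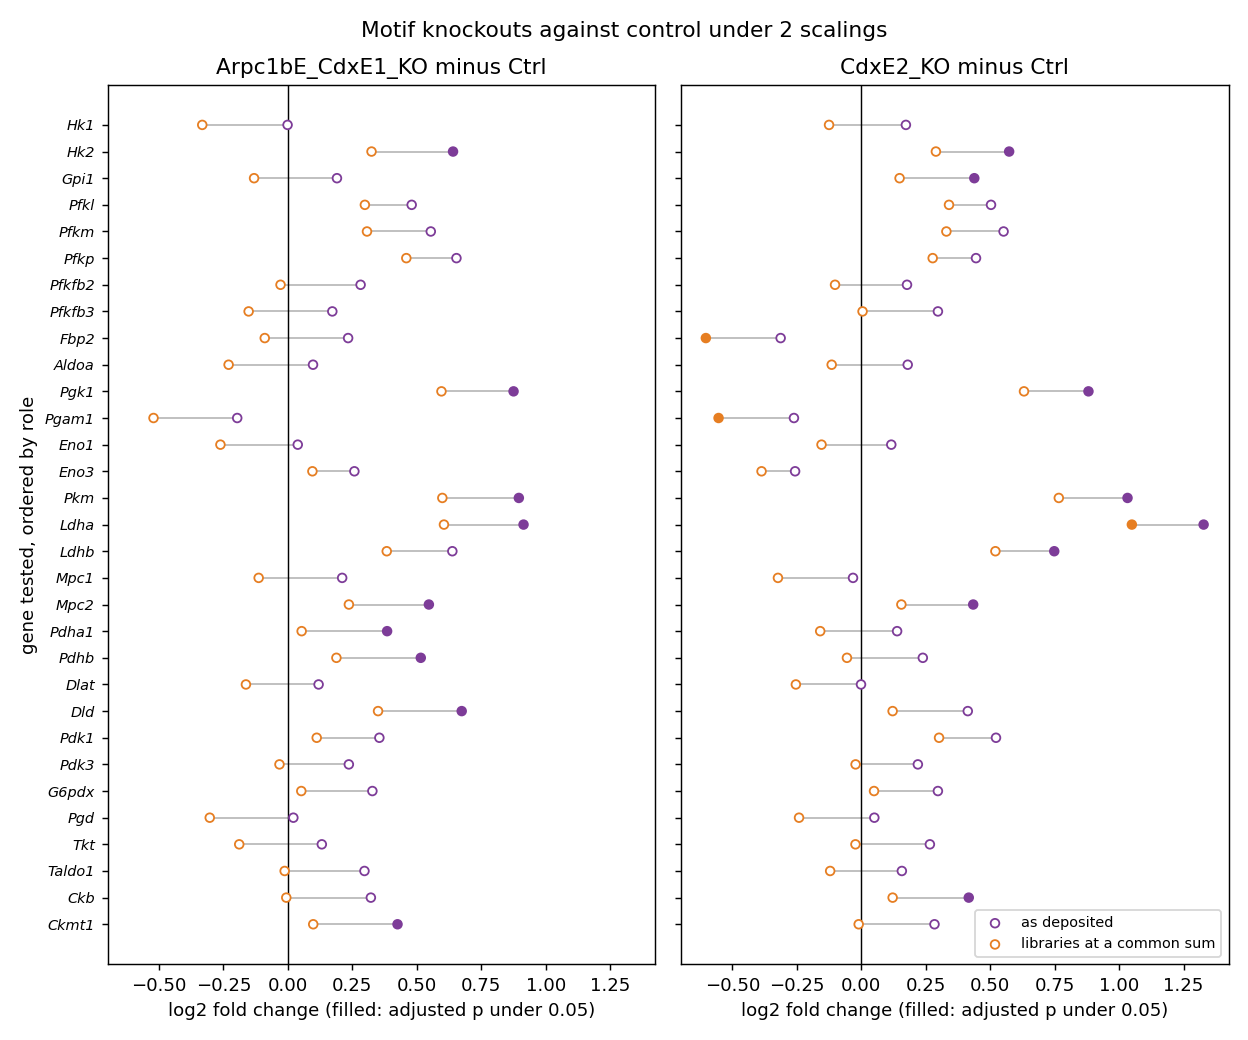
Log2 fold change of the 31 tested genes for Arpc1bE_CdxE1_KO minus Ctrl (left) and CdxE2_KO minus Ctrl (right), as deposited (purple) and with libraries at a common sum (orange), filled where the adjusted p was under 0.05. The common sum moves every point left, and the filled orange points are Ldha at 1.05, Fbp2 at -0.60 and Pgam1 at -0.55 in CdxE2_KO embryos.

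Other genes of the same metabolism were read from 8 lists that hold none of the 36. In siTfap2c embryos 18 of their 68 tested genes were called, 26.5% beside 24.6% of all genes, 9 higher and 9 lower, so the lists as a whole were near the background. Among 7 tested carriers of glucose, lactate and pyruvate and their regulators, 2 were higher and 1 lower in siTfap2c than in Ctrl embryos. The glucose carrier Slc2a3 stood at 2.67 and 2.69 in siTfap2c embryos against 3.95 and 3.79 in Ctrl embryos, a log2 fold change of -1.19 (limma adjusted p = 0.000272). Txnip, an arrestin-like protein that lowers glucose uptake, stood at 2.08 and 2.12 against 0.70 and 0.93 in Ctrl embryos, a log2 fold change of 1.28 (adjusted p = 0.000391). The lactate carrier Slc16a3 stood at 1.06 and 1.23 against 0.57 and 0.62 in Ctrl embryos, a log2 fold change of 0.55 (adjusted p = 0.027). Slc16a3 lay near the filter and reached 1 linear unit only in siTfap2c and CdxE2_KO embryos (1.14 and 1.04 log2 units in the latter). It was thus tested only through groups where it was high. The list's median log2 fold change was -0.09, beside 0.04 over all genes.

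In the same comparison 1 of 11 other glycolytic and gluconeogenic enzymes was called, the neuronal enolase Eno2 (-0.70), lower. Of 8 other pentose phosphate and ribose phosphate enzymes 2 were higher, Rpia, which makes ribose phosphate (0.57, adjusted p = 0.00176), and Prps2 (0.81, adjusted p = 0.0472). Of 17 genes of the tricarboxylic acid cycle 4 were higher, among them Mdh2 (0.36) and Dlst (0.43), and 1 was lower, Sucla2 (-0.39). The 4 include Sdhc, which reached 1 linear unit only in siTfap2c embryos, at 1.05 and 1.10 log2 units. Sdhc was therefore tested only through the group where it was high, and its call gives no support. Of 8 genes of the NADH shuttles 2 were lower, Got1 (-0.55) and Gpd1l (-0.27), and of 7 other pyruvate dehydrogenase genes 1 was lower, Pdhx (-0.55). Among 8 regulators 1 was higher, the AMP-activated kinase subunit Prkaa1 (0.61, adjusted p = 0.000529), and 3 were lower, Myc (-0.80), Mycn (-0.88) and Esrrb (-2.01). Of the 17 called genes followed through the other settings, 6 were called in all of them: Got1, Myc, Prkaa1, Rpia, Slc2a3 and Txnip.

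In siKlf5 embryos 6 of the 68 tested genes of the lists were called, 8.82% beside 7.52% of all genes, again near the background. Rpia was higher, at 7.36 and 7.52 against 6.70 and 6.78 in Ctrl embryos (log2 fold change 0.70, limma adjusted p = 0.00307). The liver and red cell pyruvate kinase Pklr was lower, at 1.02 and 0.92 against 1.95 and 1.91 in Ctrl embryos (-0.95, adjusted p = 0.00898), 1 of 11 other glycolytic enzymes. Egln1, the prolyl hydroxylase that marks hypoxia-inducible factors for breakdown, was at 4.12 and 3.98 against 4.99 and 4.95 in Ctrl embryos (-0.92, adjusted p = 0.00218). Egln1 was 1 of 3 lower among 8 regulators, with Myc (-0.68) and Prkaa2 (-0.71), and Gpd1l was lower among the shuttles (-0.31). Of these, Egln1 and Rpia were called in all other settings. Egln1 also differed between the knockdowns, by 0.82 (siTfap2c minus siKlf5, adjusted p = 0.000715), as did Prkaa1 by 0.78 (adjusted p = 0.00016).

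In Arpc1bE_CdxE1_KO embryos 12 of 66 tested genes of the lists were called, 18.2% beside 24.0% of all genes, and in CdxE2_KO embryos 10 of 66, 15.2% beside 29.9%. The lactate and pyruvate carrier Slc16a1 stood at 5.91 and 5.89 in Arpc1bE_CdxE1_KO and 6.18 and 6.12 in CdxE2_KO embryos, against 4.77 and 4.84 in Ctrl embryos. Its log2 fold changes were 1.10 and 1.35 as deposited (limma adjusted p = 0.000883 and 0.000395) and 0.78 and 1.06 at a common sum (adjusted p = 0.00605 and 0.00131). Slc2a3 stood at 4.58 and 4.31 in Arpc1bE_CdxE1_KO and 4.74 and 5.02 in CdxE2_KO embryos, against 3.95 and 3.79 in Ctrl embryos. Its log2 fold changes were 0.58 and 1.01 as deposited (adjusted p = 0.0299 and 0.00596) and 0.26 and 0.73 at a common sum (adjusted p = 0.307 and 0.0306). These were the genes of the 8 lists whose calls held in all other settings, Slc16a1 in both knockouts and Slc2a3 in CdxE2_KO embryos. The control libraries are the same in all 4 comparisons with Ctrl, so these are not independent of each other.

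Taking the 36 genes over all 5 comparisons, 22 were called in at least 1 in the values as deposited and the fits used here. Another 9 were tested and not called in those, and 5 were too low to test. How many of all genes were called in at least 1 comparison was not counted. The 22 are therefore no result particular to these genes. The 9 were Pfkl, Pfkp, Pgam1, Eno3, Dlat, Pdk1, Pdk3, G6pdx and Pgd. Of these, 4 passed the threshold in some other setting. Pfkp in Arpc1bE_CdxE1_KO embryos and Pfkl and Pdk1 in CdxE2_KO embryos were called higher with all 10 libraries fitted together. Pgam1 was called lower in CdxE2_KO embryos with median centring and at a common sum, and in each knockdown with the 4 libraries of the comparison alone. It was also called lower in siKlf5 embryos with the stricter filter on low values. Pdk1 was called higher in siTfap2c embryos at a common sum and with the 4 libraries alone. Pgd, the second oxidative enzyme of the pentose phosphate pathway, had the narrowest range of these, 5.26 to 5.43 log2 units over the 10 libraries.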

How the data were processed

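Per the labels' protocols, total RNA was reverse transcribed from random primers and ribosomal cDNA was depleted. The authors deposited log2 values, 1 for each of 24421 genes and library, in 3 tables. Exact zeros show that 1 was added before the logarithm, which understates changes of low genes. The submitters' processing notes name the mm10 build, StringTie 1.3.4, HISAT2 2.1.0, Cufflinks and SAMtools 1.7.

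A gene entered a fit if it reached 1 linear unit in 2 or more of its libraries. The test was limma 3.58.1 (R 4.3.3), with trended eBayes, and calls were made where the Benjamini-Hochberg adjusted p over all genes tested was under 0.05. Knockdown comparisons used all 10 libraries (11195 genes, 5 residual degrees of freedom). Ctrl stands in the motif knockout table, so they run across tables that may have been scaled separately. Knockout comparisons used the 6 libraries of that table (10920 genes, 3 residual degrees of freedom). The p-values reflect only how far 2 libraries of a group lay apart. The code was tested on simulated data. Near copies were found with blastn 2.17.0.

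The members and lists were chosen with earlier results of these data known. Genes named are all members, the targeted genes, Arpc1b and Cdx2, cell markers, near copies and overlapping genes. Added to these are up to 4 called genes with the lowest p per list and comparison. Aldoa has no position because 2 gene models share its symbol.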

Additional observations from a re-analysis of the deposited data

How the results depend on the processing

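In siTfap2c embryos against Ctrl embryos the falls of Ckb, Pfkfb2, Hk2, Ckmt1, Hk1 and Fbp2 were called in all 12 other settings: other filters, added constant, scalings, spread model, sets of libraries, the replicate block and each library left out. Of all genes 1535 to 1773 were called with 1 library left out, and 6 to 8 members. In siKlf5 embryos 1 member was called with no filter on low values, 5 with a filter at 5 linear units, 1 without the trend and 5 with the 4 libraries alone, and 0 to 1 with 1 library left out, where limma gave 7 and 8 members an unadjusted p under 0.05 in the sets with 0 called. Of all genes 507 were called there with no filter and 211 to 317 with 1 library left out. Between the knockdowns the leave-one-out counts were 8 to 9 members and 1587 to 1785 genes.

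In Arpc1bE_CdxE1_KO embryos 2 members were called with no filter, 0 with median centring, 0 at a common sum and 4 without the trend. With median centring and at a common sum limma gave 6 members an unadjusted p under 0.05, beside 2440 and 2437 of all genes. Without the trend 1943 of all genes were called. All member calls were lost without Ctrl replicate 2, and most without Ctrl replicate 1. Of all genes 1166 were called with no filter, 321 with median centring, 313 at a common sum and 161 to 2864 with 1 library left out. Without Ctrl replicate 1 they were 313 and without Ctrl replicate 2 161. In CdxE2_KO embryos 3 members were called with no filter, 2 with median centring, 3 at a common sum, 5 without the trend and 13 with all 10 libraries. Without the trend 2859 of all genes were called, and with all 10 libraries 4091. Fewer members were called than as deposited with any 1 library left out, and all calls were lost without Ctrl replicate 2. Of all genes 1858 were called with no filter, 681 with median centring, 696 at a common sum and 514 to 1099 with 1 library left out. Prkaa1, called higher in CdxE2_KO embryos as deposited (log2 fold change 0.30), was at -0.0305 with median centring. Sets with 1 library in a group assume that it varies like the other groups, and the cause of these changes was not tested.

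Same-numbered replicates did not deviate together, with correlations of -0.05 to 0.04 over 10 pairs of groups. This cannot tell whether they shared a pool of embryos or a run. With the replicate block 11, 3, 11, 9 and 6 members were called, against 9, 3, 11, 9 and 8 without it. These stand in the order siTfap2c, siKlf5, siTfap2c against siKlf5, Arpc1bE_CdxE1_KO and CdxE2_KO embryos. Over all genes the block gave 2615, 706, 2735, 2483 and 3087 calls in the same order, against 2749, 842, 2865, 2621 and 3270.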
